A study of Mus musculus with 6 samples.

Results

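Regional identity along the gut was examined through 9 transcription factors, Cdx1, Cdx2, Hnf4a, Gata4, Gata6, Sox2, Pdx1, Onecut2 and Hoxb13, in mouse colonic organoids in which atypical protein kinase C (aPKC) could be deleted. The 9 genes were chosen by symbol as factors known to set colonic, small intestinal or gastric identity, and all 9 were among the 25067 gene rows of the deposited values. Of these rows, 13210 had a mean normalized count of at least 10 over the 6 libraries and were tested. They included 6 of the 9 factors, namely Cdx1, Cdx2, Hnf4a, Gata6, Onecut2 and Hoxb13. Gata4, Pdx1 and Sox2 lay under this minimum and are given by their values per library. Gata4 and Pdx1 were also compared by exact permutation, and Pdx1 in a fit without the minimum.

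Colon crypts of C57BL/6 mice 8 weeks old, homozygous for floxed Prkci (Prkci f/f) and floxed Prkcz (Prkcz f/f) and carrying Villin-CreERT2, had been grown as organoids in a medium holding WNT3A, EGF, Noggin and R-spondin 1. At passage they received 4-hydroxytamoxifen (4-OHT), the ligand that moves CreERT2 into the nucleus, or ethanol as vehicle, and RNA was taken after 3 days, with 3 libraries in each group. The Villin promoter drives Cre in gut epithelial cells, and both groups carried the floxed alleles and the Cre transgene, although the vehicle libraries are described as wild type. As no 4-OHT library lacked Cre or the floxed alleles, loss of aPKC, Cre activity and 4-OHT itself cannot be told apart. Nothing stated that the 3 libraries of a group came from separate mice or cultures, so the p-values measure the spread between these libraries, which may be technical.

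The caudal-type homeobox factors CDX1 and CDX2 specify intestinal epithelium along the gut, and loss of CDX2 is known to let foregut genes appear in intestinal cells. HNF4A, with its paralog HNF4G, maintains the absorptive programme, while GATA4 marks the duodenum and jejunum and is absent from ileum and colon, where GATA6 is present. PDX1 and ONECUT factors belong to duodenum, pancreas and liver, SOX2 to stomach and oesophagus, and HOXB13 to the most posterior gut, the Hox genes being ordered along their clusters roughly as they are expressed along the body.

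The upstream sequences of the intestinal master regulators Cdx2 and Hnf4a are shown because Cdx2 was the factor that fell and because Hnf4a, which did not pass the test, is transcribed from separate upstream and downstream starts that a count per gene does not separate. Of the Hnf4a starts the upstream one is printed. RefSeq promoter sequences (GRCm38.p6) were matched for 4 of the 9 factors, Cdx2, Hnf4a, Sox2 and Pdx1. Each sequence is the 250 bases before a start, read 5′ to 3′ on the strand of the gene, at chr5:147307250-147307499 on the minus strand for Cdx2 and at chr2:163506607-163506856 on the plus strand for the upstream start of Hnf4a. Capitals mark matches, on either strand, to short letter motifs of CDX, GATA and ONECUT factors that are spelled out after the sequences.
Cdx2: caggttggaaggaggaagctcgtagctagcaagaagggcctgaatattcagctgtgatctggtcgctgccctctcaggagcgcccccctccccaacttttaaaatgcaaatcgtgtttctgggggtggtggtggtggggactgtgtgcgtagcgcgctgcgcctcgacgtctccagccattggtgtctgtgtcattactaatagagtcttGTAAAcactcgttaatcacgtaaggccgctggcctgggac
Hnf4a upstream start: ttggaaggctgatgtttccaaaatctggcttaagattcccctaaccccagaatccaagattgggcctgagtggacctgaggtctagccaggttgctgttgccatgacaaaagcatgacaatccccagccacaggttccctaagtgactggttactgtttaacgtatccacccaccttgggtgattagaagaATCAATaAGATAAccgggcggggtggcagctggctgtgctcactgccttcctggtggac

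The letters searched on both strands were TTTAC for CDX factors, which the Cdx2 stretch held on the opposite strand 40 to 36 bases before the start. The upstream Hnf4a stretch held ATCAAT, the letters searched for ONECUT factors, 59 to 54 bases before its start, and AGATAA, those for GATA factors, 52 to 47 bases before it. The 250 bases before the downstream start of Hnf4a held none of these letters. No marked matches overlapped each other. Among 32851 promoter entries of the same length, 28.3% held the CDX letters, 10% the GATA letters and 6.7% the ONECUT letters, and a match is a description of the sequence only.

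The libraries held 15804709 to 26957612 reads assigned to genes in the vehicle group and 17603040 to 19588575 in the 4-OHT group. The targeted genes were lower in every 4-OHT library: Prkcz had normalized counts of 880, 904 and 954 with vehicle and 287, 265 and 290 with 4-OHT, and Prkci had 3603, 3526 and 3430 against 2869, 3105 and 3089. The log2 fold change, here always that of the normalized count + 1 in 4-OHT over vehicle, was -1.70 for Prkcz and -0.22 for Prkci. These are changes of -69.1% for Prkcz and -14.2% for Prkci, so most of the Prkci RNA remained. The fall of Prkci was no larger than that of Cdx2 (-16.6%), which was not targeted. Whether Prkci was deleted was not tested. Of 8 epithelial marker genes, 7 rose and 0 fell, where 22.7% of all genes tested rose and 21.0% fell. The 4-OHT replicates 2 and 3 stood apart through transcripts of the small intestine and of other cells. The 6 alpha-defensin genes of Paneth cells had 2, 6 and 4 reads in the vehicle libraries and 6, 425 and 358 reads in 4-OHT replicates 1, 2 and 3. The other 6 genes of the Paneth list had 1398, 2298 and 1086 reads together with vehicle and 1541, 1916 and 1849 with 4-OHT, and over the whole list of 12 genes 9 were tested, 6 rose and 1 fell. Among these, Ang4, an antimicrobial ribonuclease, rose in all 3 4-OHT libraries, from normalized counts of 478, 610 and 499 to 855, 994 and 1106, Mmp7, a matrix metalloproteinase, fell (log2 fold change -0.28, limma adjusted p = 0.0066), and the lysozyme Lyz1 was at 0.37 (0.11). The 5 plasma cell genes had 0, 0 and 0 reads against 1, 204 and 63. The 10 smooth muscle and fibroblast genes had 25, 16 and 17 reads with vehicle and 22, 73 and 295 with 4-OHT. The 13 enteroendocrine genes among the values summed to 36.2 to 50.9 reads per 1000000 reads with vehicle and to 54.0 to 63.8 with 4-OHT, and their part in the changes was not tested. The 8 endothelial and leukocyte genes had 6 to 18 reads in a library and the 6 genes of enteric glia and neurons 18 to 32. Some of the results that 4-OHT replicates 2 and 3 can move are also given without them.

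**Figure D1:**
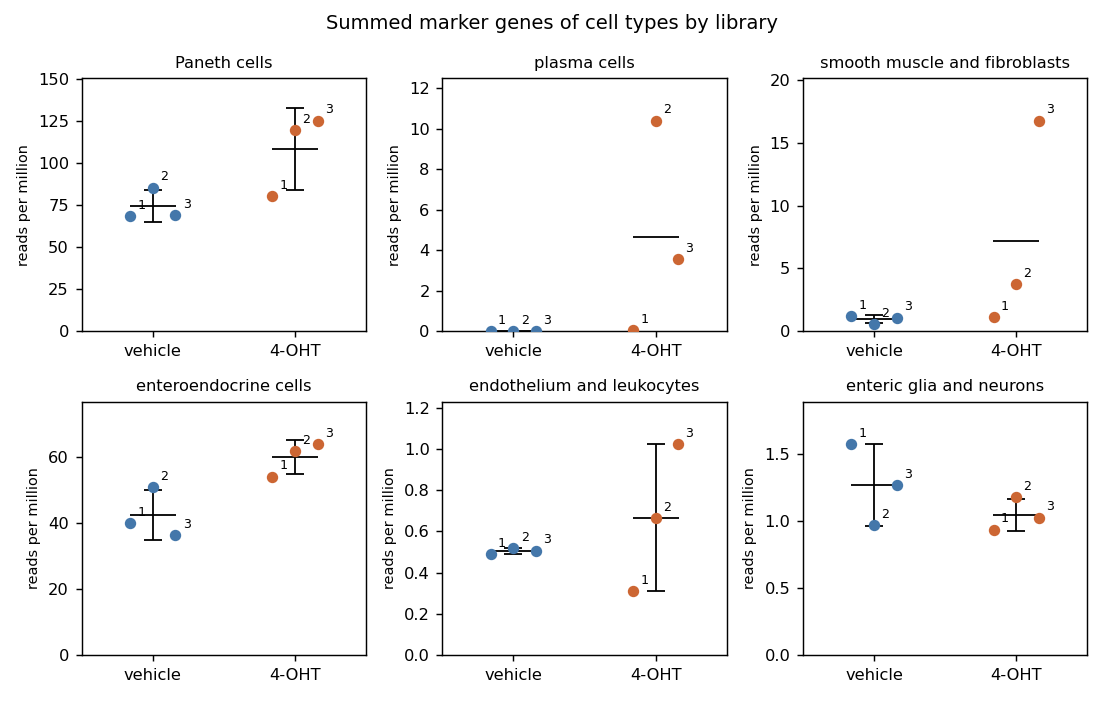
Summed reads per 1000000 reads (linear axis from 0) of marker genes of 6 cell types in each library, numbered by replicate, with horizontal bars for the mean and SD of 3 libraries (SD left out where it exceeds the mean or a library is at 0). The plasma cell sum is 0 in all 3 vehicle libraries and 10.4 in 4-OHT replicate 2, and the smooth muscle and fibroblast sum is highest in 4-OHT replicate 3 at 16.8.

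Expression of the 9 factors was compared first. Onecut2 rose and Cdx2 fell, whereas Cdx1, Hnf4a, Gata6 and Hoxb13 did not pass the test. Thus 1 of the 6 tested factors was higher and 1 was lower at an adjusted p under 0.05 (limma, Benjamini-Hochberg over all 13210 genes). Over all genes tested, 43.6% passed in either direction, 22.7% as higher and 21.0% as lower, so changed genes were no more frequent among the factors than elsewhere. The 3 values of one group lay wholly above those of the other for 2 of the 6 factors and for 52.1% of all genes tested. The median log2 fold change of the 6 factors was 0.04, and that of all genes was -0.01. In bulk RNA, fewer cells expressing a gene and less RNA per cell cannot be told apart.

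CDX2 is the homeobox factor that maintains intestinal identity in the adult gut. Its normalized counts were 6664, 6577 and 6689 with vehicle and 5334, 5804 and 5502 with 4-OHT. All 3 4-OHT libraries lay below all 3 vehicle libraries. Its mean fell from 6643 ± 59.0 to 5546 ± 238 (SD, n = 3 each), which is -0.26 on the log2 scale (SE 0.04, limma adjusted p = 6.9e-05) or -16.6%, with a 95% interval from -21.7% to -11.1%. With 4-OHT replicate 1 as the only treated library the log2 fold change of Cdx2 was -0.32 (limma adjusted p = 3.7e-04). In this and all other fits with 1 treated library, the spread comes from the 3 vehicle libraries and the lone 4-OHT library is assumed to vary like them, so that such a p has no replicate check on the treated side. In that library the defensin genes had 6 reads and the plasma cell genes 1, and its Cdx2 value of 5334 was the lowest of the 6.

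CDX1, the paralog of CDX2, is highest in the crypts of the distal gut. It had normalized counts of 2865, 2596 and 2926 with vehicle and 2891, 2887 and 3124 with 4-OHT. The groups overlapped, with means of 2796 ± 176 and 2967 ± 136 (SD, n = 3 each). The log2 fold change was 0.09 (SE 0.05, limma adjusted p = 0.20), and its 95% interval ran from -1.68% to 14.7%. A fall of Cdx1 of the size seen for Cdx2 lay outside this interval. The ratio of Cdx2 to Cdx1 within a library was 2.33, 2.53 and 2.29 with vehicle and 1.85, 2.01 and 1.76 with 4-OHT. All 3 ratios were lower with 4-OHT, the mean log2 ratio differing by -0.35 (exact two-sided permutation test, p = 0.1, the smallest that 3 against 3 allows). This ratio too was chosen after its values were seen.

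HNF4A is the nuclear receptor on which the absorptive programme of the intestine depends. It was the factor with the most reads, with normalized counts of 13715, 14053 and 13714 with vehicle and 14156, 13928 and 13817 with 4-OHT. The groups overlapped and their means were 13827 ± 195 and 13967 ± 173 (SD, n = 3 each). Its log2 fold change was 0.01 (SE 0.04, limma adjusted p = 0.80), and -0.11 (limma adjusted p = 0.031) when the log2 values were quantile normalized, so its direction rests on the scaling. The 95% interval of the main estimate ran from -4.70% to 7.07%. Its paralog Hnf4g, which shares its binding sites, had normalized counts of 226, 199 and 240 against 245, 211 and 241, with a log2 fold change of 0.07 (limma adjusted p = 0.64). The ratio of Hnf4g to Hnf4a differed by 0.06 on the log2 scale (exact two-sided permutation test, p = 0.7). The ratio of Cdx2 to Hnf4a was 0.486, 0.468 and 0.488 with vehicle and 0.377, 0.417 and 0.398 with 4-OHT. The log2 ratio differed by -0.28 (exact two-sided permutation test, p = 0.1, the smallest that 3 against 3 allows). As the ratio was chosen after its values were seen, it restates the fall of Cdx2 and is no separate result.

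GATA6, the GATA factor of ileum and colon, had normalized counts of 1089, 1104 and 972 with vehicle and 1084, 1044 and 1101 with 4-OHT. The groups overlapped (means 1055 ± 72.3 and 1076 ± 29.2, SD, n = 3 each), and the 95% interval ran from -6.68% to 11.8% (log2 fold change 0.03, limma adjusted p = 0.72). The antisense gene Gata6os was lower in every 4-OHT library, with normalized counts of 125, 99.3 and 93.2 against 66.1, 72.6 and 60.3 (log2 fold change -0.66, SE 0.17, limma adjusted p = 0.0041). As the strand setting of the counting was not given in the sources used here, reads of Gata6 and Gata6os may not be fully told apart. GATA4, the factor of the proximal small intestine, had only 14, 11 and 8 reads with vehicle and 14, 1 and 3 with 4-OHT. Its lowest values were in 4-OHT replicates 2 and 3, the libraries with the Paneth and plasma cell transcripts, and the groups overlapped (exact two-sided permutation test, p = 0.5).

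ONECUT2, a cut-homeobox factor of the duodenum, liver and pancreas, was the factor with the largest change among those tested. Its normalized counts were 569, 598 and 519 with vehicle and 910, 714 and 897 with 4-OHT. Every 4-OHT library lay above every vehicle library. The mean rose from 562 ± 39.8 to 840 ± 110 (SD, n = 3 each), which is 0.57 on the log2 scale (SE 0.09, limma adjusted p = 2e-05) or 48.8% higher, with a 95% interval from 31.3% to 68.6%. With 4-OHT replicate 1 as the only treated library, and the same assumption on its spread, the log2 fold change was 0.70 (limma adjusted p = 4.4e-05). In all 3 libraries together the rise was larger in size than that of 85.6% of the genes tested. Cdx2 exceeded 58.5% of them and Hnf4a 3.8%. The paralogs of Onecut2 were nearly silent: Onecut1 had 1, 5 and 2 reads with vehicle and 0 in each 4-OHT library, and Onecut3 had 3, 1 and 0 against 2, 2 and 10.

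PDX1, the factor of duodenum and pancreas, lies next to Cdx2 among the protein-coding genes of chromosome 5. It had 9, 17 and 6 reads with vehicle and 5, 3 and 4 with 4-OHT, which are normalized counts of 8.40, 12.1 and 7.26 against 5.17, 3.11 and 4.55. All 3 4-OHT values were below the vehicle values, and the exact two-sided permutation test gave p = 0.1, the smallest possible here. Fitted without the low-value filter, the log2 fold change was -0.95 (limma adjusted p = 0.26). SOX2, the factor of stomach and oesophagus, was at 0 reads with vehicle in each library and at 0, 1 and 1 with 4-OHT. These counts are under the floor of 3 reads that a count of 0 allows, so a difference was not detectable at this depth.

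HOXB13, the most posterior member of the Hoxb cluster, had normalized counts of 12.1, 13.5 and 19.4 with vehicle and 9.30, 14.5 and 26.2 with 4-OHT, from 9 to 23 reads per library. The 4-OHT libraries held both the lowest and the highest value. The log2 fold change of Hoxb13 was 0.06 (SE 0.41, limma adjusted p = 0.93), and its 95% interval from -42.3% to 86.9% includes falls and rises larger than that of Cdx2. Its direction reversed without vehicle replicate 1 (-0.07), vehicle replicate 2 (-0.0035) or 4-OHT replicate 3 (-0.31).

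**Figure D2:**
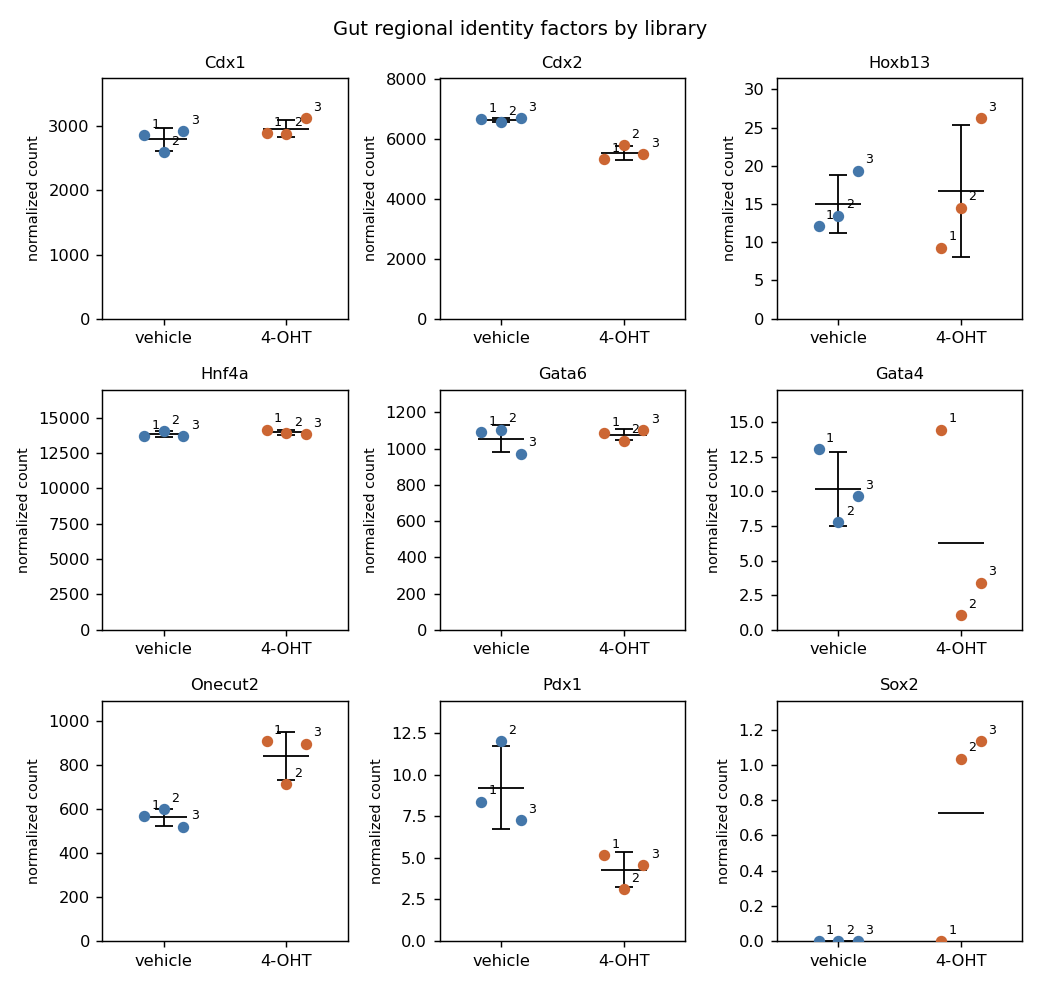
Normalized counts (linear axes from 0, different in each panel) of the 9 factors in each library, numbered by replicate, with horizontal bars for the mean and SD of 3 libraries (SD left out where it exceeds the mean or a library is at 0). The 3 Cdx2 points with 4-OHT lie at 5334 to 5804, below the vehicle points at 6577 to 6689, and the Onecut2 points with 4-OHT lie at 714 to 910, above 519 to 598.

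Levels were compared between factors per kilobase of exon (GENCODE vM21 lengths, which may not be the annotation the authors used). Such a level assumes reads along the whole transcript, which was not checked here. By normalized count alone, Hnf4a at 13827 stood above Cdx2 at 6643 with vehicle. In the vehicle libraries the order of mean normalized counts per kilobase was Cdx2 at 2938 ± 26.1, Hnf4a at 2864 ± 40.5, Cdx1 at 1597 ± 101, Gata6 at 162 ± 11.1, Onecut2 at 34.6 ± 2.45, Hoxb13 at 6.80 ± 1.75, Pdx1 at 4.28 ± 1.16, Gata4 at 2.61 ± 0.68 and Sox2 at 0 (SD, n = 3 each). The neighbours Cdx2 and Hnf4a overlapped in the vehicle group, as did Hoxb13 and Pdx1. With 4-OHT the level of Hnf4a per kilobase, 2893 ± 35.8, stood above that of Cdx2, 2453 ± 105, in all 3 libraries (SD, n = 3 each).

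The expression pattern of Cdx2 over the 6 libraries was most like those of H2-Bl (Pearson r = 0.9967), Dlx1as (0.9965) and Pxk (0.9963) on the log2 scale, and 448 genes had an r over 0.95 with it. Onecut2 was most like Sanbr (0.9977), Arhgef2 (0.9967) and Prrg4 (0.9956), and 178 genes had an r over 0.95 with it. The corresponding numbers were 16 for Cdx1, 5 for Hnf4a, 19 for Gata6 and 2 for Hoxb13. With 6 libraries in 2 groups, these values mostly restate the difference between groups and carry no test.

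Paralogs and partners of the factors were then examined. Of 11 genes described here 10 were among the values and 7 were tested, of which 3 rose, 2 fell and 2 did not pass. The shares over all genes tested were 22.7% higher and 21.0% lower. Sox21, a SOX factor of the foregut and nervous system, rose from 650, 535 and 577 to 958, 941 and 924 (log2 fold change 0.68, SE 0.07, limma adjusted p = 2.8e-07). The pioneer factors Foxa1 and Foxa3, which open chromatin in gut endoderm, both rose by 0.20 on the log2 scale, with Foxa1 going from 3812, 3700 and 3552 to 4223, 4177 and 4329 (limma adjusted p = 0.0011 and 0.0086). Foxa2 moved the other way, at -0.55 (limma adjusted p = 0.014). It was named after its values were seen, since its groups overlapped, with 122, 145 and 138 against 75.4, 81.9 and 124, and it lost the threshold in 3 of 6 leave-one-out fits, those without vehicle replicate 2, 4-OHT replicate 1 or 4-OHT replicate 2.

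Gata3, a GATA factor of T cells and squamous epithelium, fell from 41.1, 36.9 and 38.7 to 12.4, 10.4 and 28.5 (-1.27, limma adjusted p = 0.0047), and Gata5 was at 0.57 (limma adjusted p = 0.30). Cdx4 was not analysed here.

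Among 17 other intestinal and regional transcription factors, 12 were tested, 6 fell, 0 rose and 6 did not pass. In either direction 50% of these passed, near the 43.6% of all genes tested. As lower, 21.0% of all genes passed, and as higher 22.7%. Osr2, a zinc finger factor, had normalized counts of 423, 476 and 442 with vehicle and 289, 286 and 314 with 4-OHT, so that the groups lay apart. It fell by 0.59 on the log2 scale, and Nr1h4, the bile acid receptor FXR, fell by 0.57 (limma adjusted p = 1.7e-05 and 4.5e-04). Nr5a2, a nuclear receptor of crypts, fell by 0.55 (limma adjusted p = 0.019), and Elf3, an epithelial ETS factor, fell by 0.26 (1.3e-04). Isx, the homeobox repressor of vitamin A uptake, and Vdr, the vitamin D receptor, were at -0.17 and -0.19 (limma adjusted p = 0.012 and 0.028). Without 4-OHT replicate 2, or without replicates 2 and 3, 3 of the genes passed as lower. Without both, Isx was at -0.06 (limma adjusted p = 0.49), Nr5a2 at -0.37 (0.24) and Vdr at -0.23 (0.072). With each library left out in turn, Nr5a2 missed the threshold in 3 of 6 fits (without vehicle replicate 1, vehicle replicate 3 or 4-OHT replicate 2), at an adjusted p of up to 0.095. Vdr missed it in 4 (without vehicle replicate 2 or 3, or 4-OHT replicate 1 or 2), at up to 0.15, and Isx in 2 (without vehicle replicate 3 or 4-OHT replicate 2), at up to 0.062.

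**Figure D3:**
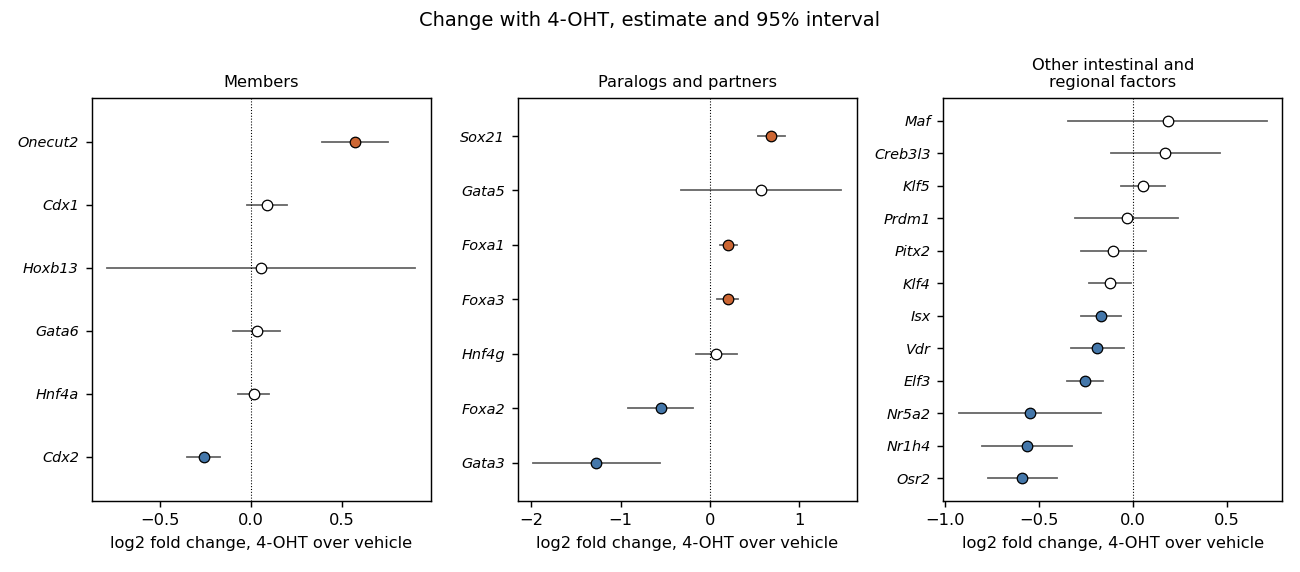
Log2 fold change of 4-OHT over vehicle (points) with its 95% interval (lines) for the tested factors, their paralogs and partners, and other regional factors, filled where the limma adjusted p was under 0.05 (orange higher, blue lower) and open otherwise. Onecut2 at 0.57 and Cdx2 at -0.26 are the filled points among the 6 factors, and all 6 filled points among the other regional factors lie below 0.

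The Hox genes, which mark position along the gut, were described together with Hoxb13. Of 36 Hox genes among the values 23 were tested, and 8 of them fell, 0 rose and 19 had a negative log2 fold change. Leaving out Hoxb13, the median over 22 genes was -0.29. The share passing as lower over all genes was the 21.0% given above. Hoxb6 fell from 2558, 2253 and 2275 to 1771, 1728 and 1638 (log2 fold change -0.46, SE 0.06, limma adjusted p = 1.5e-06), Hoxb4 from 484, 360 and 379 to 296, 274 and 250 (-0.57, 2.8e-04), and Hoxa9 from 1428, 1180 and 1373 to 933, 942 and 1026 (-0.45, 2.4e-05). For each of these 3 genes every 4-OHT library lay below every vehicle library. The other falls were those of Hoxa7 (-0.39), Hoxb5 (-0.38), Hoxb8 (-0.28), Hoxb9 (-0.21) and Hoxd8 (-0.40), and also without 4-OHT replicates 2 and 3 the count of Hox genes that fell was 8.

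Along the clusters, 6 of 11 tested genes of paralog groups 4 to 8 fell, 2 of 7 of groups 9 to 13 and 0 of 5 of groups 1 to 3, a difference that was not tested. The Hoxb cluster gave 5 of the falls among 9 tested genes, the Hoxa cluster 2 among 11 and the Hoxd cluster 1 among 3. The Hoxc genes had at most 10 reads in any library and none was tested. The antisense gene Hoxb5os fell as Hoxb5 did (-0.72, limma adjusted p = 1.0e-04), and with the strand setting not given their reads may be shared.

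**Figure D4:**
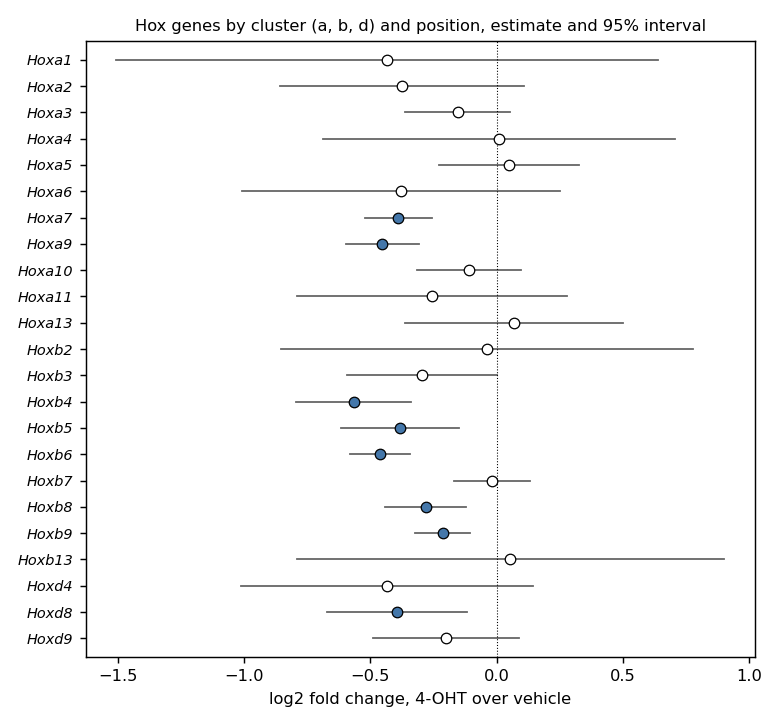
Log2 fold change of 4-OHT over vehicle (points) with its 95% interval (lines) for the 23 tested Hox genes in order of cluster and paralog group, filled blue where the limma adjusted p was under 0.05. All 8 filled points lie below 0, and Hoxb13 at 0.06 has an interval from -0.79 to 0.90.

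Genes known to be bound by CDX2 changed in both directions beside the fall of Cdx2. Of 15 genes of this kind 13 were tested, of which 4 rose, 3 fell and 6 did not pass. Their median log2 fold change was 0.13 against -0.01 over all genes, of which 22.7% rose and 21.0% fell. Gpa33, an intestinal surface glycoprotein, rose (0.43, limma adjusted p = 6e-08), as did the goblet cell trefoil peptide Tff3 (0.41) and the brush border protocadherin Cdhr5 (0.35). Gucy2c, the guanylin receptor, fell (-0.27, limma adjusted p = 2.7e-04), along with Isx and Vdr. The intestinal cadherin Cdh17 was at 0.10 (limma adjusted p = 0.078) and the goblet cell mucin Muc2 at -0.16 (0.14). The fourth rise was that of Sis, sucrase-isomaltase, on 1, 7 and 0 reads with vehicle and 3, 21 and 41 with 4-OHT, high only in replicates 2 and 3. The count of rises was 7 without vehicle replicate 2, and that of falls was 1 without 4-OHT replicate 2 or without replicates 2 and 3.

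Of 10 tested genes known as HNF4 targets, 7 rose, 0 fell and 3 did not pass, with a median log2 fold change of 0.32. Among all genes tested, 22.7% passed as higher. The rise was not particular to these targets, as 7 of the 8 epithelial marker genes also rose, with a median of 0.29. Vil1 stands in both lists. Hnf4a itself had a log2 fold change of 0.01 (-0.11 with quantile normalization). Fabp2, the intestinal fatty acid binding protein, rose from 49.4, 60.3 and 53.3 to 112, 154 and 112 (log2 fold change 1.18, SE 0.18, limma adjusted p = 2e-05). Apob, the structural protein of chylomicrons, rose by 0.67 and the microvillus cadherin Cdhr2 by 0.43, and Cdhr5, Myo1a and Vil1, all of the brush border, rose by 0.35, 0.29 and 0.24. In 6 of the 7 the value of 4-OHT replicate 1 was already above all vehicle libraries. The exception was Apoa1, the main protein of high-density lipoprotein, with 0, 2 and 7 reads against 1, 99 and 74.

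Genes of single gut regions were then set beside the factors. Their counts stand beside the 22.7% of all genes tested that rose and the 21.0% that fell. Of 11 tested genes of the proximal small intestine 5 rose and 2 fell, but only Fabp2 and the retinol binding protein Rbp2 (0.92) were raised in 4-OHT replicate 1. Apoa1, Sis and the aminopeptidase Anpep, with 5, 10 and 4 reads against 3, 171 and 122, were high only in replicates 2 and 3. Without both of these libraries 1 of the genes passed as higher and 1 as lower. The count of rises was 3 without vehicle replicate 1, 2 without 4-OHT replicate 2 and 1 without 4-OHT replicate 3, and Rbp2 missed the threshold in each of these 3 fits at log2 fold changes of 0.82, 0.82 and 0.78, close to its 0.92 over all libraries. It was at 0.45 (limma adjusted p = 0.47) without both replicates 2 and 3. The glucosidase Mgam (-0.44) and the iron exporter Slc40a1 (-0.26) fell, Slc40a1 not passing without vehicle replicate 2 or 4-OHT replicate 2. Although listed as proximal, Mgam was abundant in these colonic organoids, with a mean normalized count of 10129 with vehicle. Of 4 tested ileal bile acid genes Fabp6 and Slc51a rose, Fabp6 on 2, 3 and 2 reads against 4, 120 and 34, and Nr1h4 fell. The count of ileal rises was 0 without replicates 2 and 3 or without replicate 2 alone, and 1 without vehicle replicate 1 or 4-OHT replicate 3. The alpha-defensin, plasma cell and smooth muscle reads were highest in the same libraries, and their part in these rises was not tested.

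Colon genes changed in both directions, 3 of 7 tested rising and 2 falling, against 22.7% and 21.0% of all genes tested. Car1, the carbonic anhydrase of colonocytes, rose from 4724, 5756 and 5030 to 8657, 10662 and 9997 (log2 fold change 0.92, SE 0.07, limma adjusted p = 2.6e-09). Aqp4, a water channel, fell by 0.90 and the glycosyltransferase B4galnt2 by 0.29 on the log2 scale. Car4 rose on 1, 2 and 2 reads against 5, 11 and 44, and the water channel Aqp8 rose with overlapping groups (1.28, limma adjusted p = 0.026). Without 4-OHT replicate 3 the count of colon genes that rose was 1.

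Of 18 stomach genes 16 were among the values and 5 were tested, 4 of which rose, against 22.7% of all genes tested. Beside Anxa10 (1.68), Psca, a surface antigen of stomach and bladder, rose from 17.7, 10.6 and 23.0 to 58.9, 49.8 and 43.3 (1.56, limma adjusted p = 2.7e-04), and the gastric protease Ctse rose by 0.72 and the junction protein Vsig1 by 0.43. The other 11 genes among the values, which include the defining markers of gastric cells, lay under the minimum with at most 13 reads in any library. Atp4a, the acid pump subunit of parietal cells, had 11, 9 and 8 reads with vehicle and 4, 1 and 4 with 4-OHT, and the gland mucin Muc6 had 13, 4 and 3 against 3, 2 and 1. The gastrokine Gkn3 had 6, 7 and 1 reads against 1, 0 and 3, the claudin Cldn18 and the surface mucin Muc5ac had at most 2 in any library, and Gkn1 had 0 in each. Without 4-OHT replicates 2 and 3, 2 of the stomach genes passed as higher, while Ctse was at 0.45 (limma adjusted p = 0.21) and Vsig1 at 0.37 (0.068). With 1 treated library left, the loss of these calls does not show which libraries carried the rises. For all 4 rises the value of 4-OHT replicate 1 was itself above every vehicle library. For Ctse it was 81.6 against at most 67.2, and for Vsig1 266 against at most 216.

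**Figure D5:**
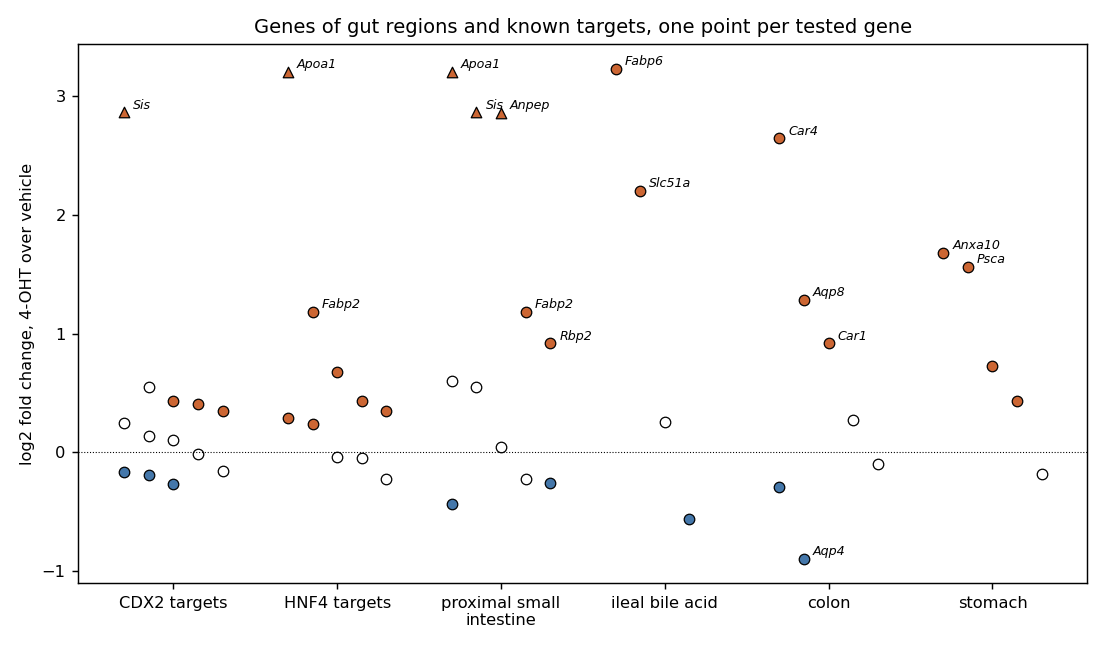
Log2 fold change of 4-OHT over vehicle for each tested gene of 6 groups (known CDX2 and HNF4 targets, proximal small intestine, ileum, colon and stomach), filled where the limma adjusted p was under 0.05 (orange higher, blue lower). Triangles mark rises in which 4-OHT replicate 1 was not above all vehicle libraries, which are Sis, Apoa1 and Anpep, and names are given for changes over 0.8 in size.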

How the data were processed

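RNA-seq of 6 colonic organoid libraries, 3 with vehicle and 3 with 4-OHT, was analysed. The deposited values are normalized counts, a signal for which the authors divided the read counts of each gene by a size factor per library. The submitters' processing notes name STAR, DESeq2 and the builds GRCm39 and mm39, and the counting tool, annotation and strand setting are not given in the sources used here. Whole reads were recovered from the smallest step in each library, with 100% of values whole within 0.1, and gave 15804709 to 26957612 reads per library. A count of 0 allows up to 3 reads, and intervals and floors cover counting error only.

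Values were tested as log2(normalized count + 1) with limma 3.58.1 (R 4.3.3, trend, two-sided) on 13210 rows with a mean of at least 10, and called at a Benjamini-Hochberg adjusted p under 0.05. A fold change on this scale understates that of low genes. Rows sharing a symbol (4 symbols) were kept apart. Single values were compared by exact permutation. edgeR 4.0.16 (quasi-likelihood) and DESeq2 1.42.0 were run on the recovered reads as alternatives, beside other pseudocounts, filters and scalings, a replicate block and fits leaving out libraries. The ratios between factors were chosen after their values were seen.

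On simulated counts for this comparison over 13210 genes, with 200 changed by 1 on the log2 scale, limma recovered 170 with 16 false calls, edgeR 171 with 17 and DESeq2 167 with 13. Recovery at smaller sizes, such as the -0.26 of Cdx2 and the 0.57 of Onecut2, was not tested. A share of changed genes as large as the 43.6% called in these data was not tested either. Replicates of a group differed beyond sampling noise (chi-square per degree of freedom 3.345 to 6.044), so none was a copy of another library. This does not show that they came from separate mice or cultures.

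The factors and gene lists were chosen with earlier results of these data known. Named genes are the 9 factors, Prkci and Prkcz, paralogs of the factors, up to 3 genes of each list with the largest rise and up to 3 with the largest fall among those past the threshold whose groups did not overlap, and the 3 genes most correlated with a factor. Other genes that are named were chosen after their values were seen, among them Foxa2, Elf3, the smaller Hox falls, Vsig1 and Aqp8. The lists of known targets and regions come from general knowledge, not from these files, and some genes stand in more than 1 list. Some listed genes are not reported here and were left out of the lists and their counts.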

Additional observations from a re-analysis of the deposited data

How the results depend on the processing

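With the main settings 5765 genes changed, between 3848 and 5780 over 16 alternatives and between 4946 and 5636 with each library left out. Genes higher numbered 2997, 1991 without 4-OHT replicates 2 and 3 and between 2621 and 2907 with each library left out, and genes lower between 2311 and 2729 in those fits. Cdx2 (-0.34 to -0.23) and Onecut2 (0.51 to 0.70) kept their direction and their side of the threshold under all 16 alternatives. Hnf4a reversed with quantile normalization (-0.11, limma adjusted p = 0.031). With each library left out Gata6 was between -0.0275 and 0.0644, Hoxb13 between -0.31 and 0.39 and Hnf4g between -0.0036 and 0.14, and Hoxb13 was at -0.61 without 4-OHT replicates 2 and 3. The cause was not tested. Of 580 values for 37 other named genes, 551 kept direction and side of the threshold, 28 lost the threshold and 1 reversed. Of 288 values for 18 list counts, 26 moved by over 1.5 times, among them 5 for rises in the proximal small intestine (1 to 6 genes) and 6 for rises in the ileum (0 to 3 genes). No scaling moved the median of all genes by 0.1. Same-numbered libraries had correlations of -0.0074, 0.0303 and -0.0202 after group means were removed, so the numbers show no pairing, and a replicate block gave 5637 genes, with Cdx2 at -0.26 and Onecut2 at 0.57. Depth limits Gata4, Pdx1, Sox2 and Hoxb13 most, with at most 23 reads in any library. A minimum mean of 50 left no value for Hoxb13.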
